A study of Mus musculus with 18 samples.

Results

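The subject is a set of 10 genes expressed in muscle: Abra, Srf and genes of the actin cytoskeleton (Vcl, Actb, Actg1, Acta1, Acta2, Actc1, Flna and Raph1), followed in gracilis muscle of mice given the β2-adrenergic agonist clenbuterol. The 10 genes were chosen by name, with results of these data at 24 h already known. Every probeset that the platform annotation gives to one of them alone was taken, and probesets listed with several genes were left out. They have 17 probesets, of 18193 genes and 45037 probesets on the MOE430A and MOE430B arrays together. The mice were C57BL/6J males, 3 to 5 weeks of age, of no engineered genotype. Control mice (C) received vehicle by intraperitoneal injection for 10 days. Mice of the 24 h group received vehicle for 9 days and then clenbuterol at 1 mg/kg for 1 day, and mice of the 10 D group received 1 mg/kg for 10 days. In all 3 groups the muscle was collected 24 h after the final injection, and each group gave 3 pools of RNA from 3 mice each. Whole cages were assigned to treatments and the pooled mice were picked for large differences in blood urea nitrogen or weight gain, so the pools describe selected animals.

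Abra, also called STARS, is a muscle protein that binds actin filaments and promotes their assembly. Filament assembly uses up monomeric actin, which otherwise holds the coactivators Mrtfa and Mrtfb away from the nucleus. Released coactivators join Srf, serum response factor, at CArG boxes, and genes for actins, vinculin and Srf itself are classical targets of this circuit. Vinculin links filaments to integrin adhesions and, in muscle, to the costameres that tie the outer myofibrils to the membrane. Lamellipodin, the product of Raph1, carries Ena/VASP proteins to the leading edge of a cell.

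The CArG boxes near the start sites are shown because they are the sequence through which Srf acts. RefSeq promoter windows of the mouse build GRCm38.p6, from 250 bases before to 50 bases after a start site, were at hand for 8 of the 10 genes. A CArG box (CC, then 6 bases that are each A or T, then GG, a pattern that reads alike on both strands) was present in 5 of these 8 windows and in 535 of all 32851 windows, or 1.63%. Nothing is read from this share, because actins, vinculin and Srf are classical targets of this circuit and were chosen by name. Each stretch is written 5′ to 3′ on the gene's strand with the box in capitals:
Srf: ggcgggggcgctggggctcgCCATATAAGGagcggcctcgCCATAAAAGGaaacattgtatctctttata
Vcl: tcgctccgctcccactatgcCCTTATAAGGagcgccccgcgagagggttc
Actg1: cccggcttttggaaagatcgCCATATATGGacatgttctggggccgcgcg
Acta1: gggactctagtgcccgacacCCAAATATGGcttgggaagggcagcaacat
Actc1: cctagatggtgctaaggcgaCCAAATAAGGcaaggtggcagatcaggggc

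The Srf stretch is chr17:46556195-46556264 on the minus strand, and its 2 boxes begin 82 and 62 bases before the listed start, which lies inside the annotated span of the gene. The Vcl stretch is chr14:20929151-20929200 on the plus strand, with its box 227 bases before the start. The boxes of Actg1 (chr11:120348556-120348605, minus strand), Acta1 (chr8:123894819-123894868, minus strand) and Actc1 (chr2:114052893-114052942, minus strand) begin 90, 73 and 47 bases before the start. The windows of Acta2, Flna and Raph1 held no match to this exact pattern, which says nothing of looser boxes in the window or of boxes elsewhere. The cyclic AMP response element TGACGTCA, which reads the same on both strands, was in none of the 8 windows and in 588 windows in all (1.79%).

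Abundance is given as a level, the deposited signal of a probeset over the median of all signals on that array, so that a level of 1 is the median probeset. Differences are log2 changes between group means of log2 levels, with the standard error (SE) from limma, fitted to all 33752 probesets that were not among the dimmest of their array type. A probeset was called at a Benjamini-Hochberg adjusted p under 0.1. Because the genes were picked with the 24 h results known, their differences at 24 h and between 10 D and 24 h are described without p-values. The tissue label was borne out by its markers: the summed level of 10 skeletal fibre genes was 1280 to 2727 in the 9 pools. Of 6 heart genes, Myh6 and Tnni3 were too dim to be tested, and the summed level of the other 4 was 2.24 to 4.18 in the 9 pools.

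Abra mRNA was more abundant in every 24 h pool than in any C or 10 D pool. Its level on 1458455_at, the single Abra probeset, was 22.1, 17.2 and 24.6 in the C pools. In the 24 h pools it was 84.7, 103 and 88.0, and in the 10 D pools 18.4, 16.9 and 25.2. The C and 10 D pools thus covered nearly the same range, with the 24 h pools apart from both. The mean was 21.3 ± 3.78 (SD, n = 3) in C, 91.8 ± 9.65 (SD, n = 3) at 24 h and 20.2 ± 4.44 (SD, n = 3) at 10 D, a ratio of 4.31 at 24 h. The log2 change was 2.12 at 24 h (SE 0.26, 95% interval 1.55 to 2.69), the largest of the 16 member probesets tested. At 10 D it was -0.08 (SE 0.26, 95% interval -0.65 to 0.48), and from 24 h to 10 D it was -2.20 (95% interval -2.77 to -1.63).

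Srf mRNA, which encodes the transcription factor itself, was not higher at 24 h on either of its probesets. On the brighter one, 1418256_at, the level was 4.74, 7.49 and 6.38 in the C pools, 4.47, 1.78 and 4.58 in the 24 h pools and 4.92, 3.11 and 4.47 in the 10 D pools. All 24 h pools lay below all C pools, although the highest 24 h pool and the lowest C pool nearly met, and the 10 D pools overlapped C. The log2 change was -0.88 at 24 h (SE 0.37, 95% interval -1.71 to -0.05) and -0.58 at 10 D. Without 24 h pool 2, the lowest pool, it was -0.43 at 24 h. The second probeset, 1418255_s_at, had levels of 2.81 to 3.42 in C and 2.68 to 2.84 at 24 h, which overlapped, with log2 changes of -0.19 and -0.16. The 2 probesets thus differed in size but not in sign, and neither was called.

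Vinculin mRNA on its brighter probeset was higher in all clenbuterol pools of both times. This Vcl probeset, 1416156_at, had levels of 14.3, 13.6 and 12.4 in the C pools, 29.8, 26.5 and 28.4 in the 24 h pools and 24.96, 22.7 and 26.0 in the 10 D pools. No 24 h or 10 D pool came near the C pools, and the 24 h pools were only slightly above the 10 D pools. The means were 13.4 ± 0.968, 28.2 ± 1.66 and 24.5 ± 1.68 (SD, n = 3), ratios of 2.10 at 24 h and 1.83 at 10 D. The log2 change was 1.07 at 24 h (SE 0.18, 95% interval 0.68 to 1.47). At 10 D it was 0.87 (95% interval 0.47 to 1.27), which did not pass the threshold (adjusted p = 0.553, limma). The other Vcl probeset, 1416157_at, was dim, at 0.383, 0.382 and 0.152 in the C pools and 0.523, 0.168 and 0.877 in the 24 h pools, and its log2 change of 0.60 at 24 h had an interval of -1.50 to 2.70. In the 10 D pools it stood at 1.04, 0.101 and 0.139, on both sides of the C pools, with a log2 change of -0.20. The paper lists vinculin mRNA as higher also by quantitative PCR in other mice, 24 h after a single injection of clenbuterol.

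Filamin A, the product of Flna, crosslinks actin filaments into networks. Its level on 1426677_at was 3.08, 3.51 and 2.55 in the C pools, 4.89, 2.52 and 4.02 in the 24 h pools and 3.40, 2.42 and 3.16 in the 10 D pools. One 24 h pool lay below every C pool and the others above, so the groups overlapped. This gave a log2 change of 0.28 at 24 h (95% interval -0.34 to 0.91) and -0.03 at 10 D. At 24 h it was 0.074 without 24 h pool 1 and 0.55 without 24 h pool 2.

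Raph1 mRNA was higher at 24 h on its main probeset and stood between the C and 24 h levels at 10 D. The level on 1434303_at was 6.95, 6.62 and 5.97 in the C pools, 14.96, 20.3 and 17.4 in the 24 h pools and 12.4, 9.58 and 9.90 in the 10 D pools. The 3 groups did not overlap, in the order C, 10 D, 24 h. The means were 6.51 ± 0.496, 17.6 ± 2.70 and 10.6 ± 1.53 (SD, n = 3), ratios of 2.69 and 1.63 to C. The log2 change was 1.42 at 24 h (SE 0.20, 95% interval 0.98 to 1.86) and 0.70 at 10 D, where it was not called.

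The other Raph1 probesets gave smaller differences. On 1434302_at the level was 8.26, 8.80 and 7.93 in the C pools, 14.96, 13.3 and 17.4 in the 24 h pools and 12.8, 5.77 and 8.46 in the 10 D pools. The 24 h pools again lay above C, while the 10 D pools reached from below the lowest C pool to above the highest. On this probeset it was 0.86 on the log2 scale at 24 h and 0.04 at 10 D. On 1456918_at, where the 24 h pools (2.69, 6.54 and 5.97) overlapped C (3.14, 2.82 and 3.53), it was 0.58 at 24 h. There the 10 D pools (4.41, 4.42 and 4.04) all lay above C, with a log2 change of 0.44 (95% interval -0.23 to 1.11).

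**Figure D1:**
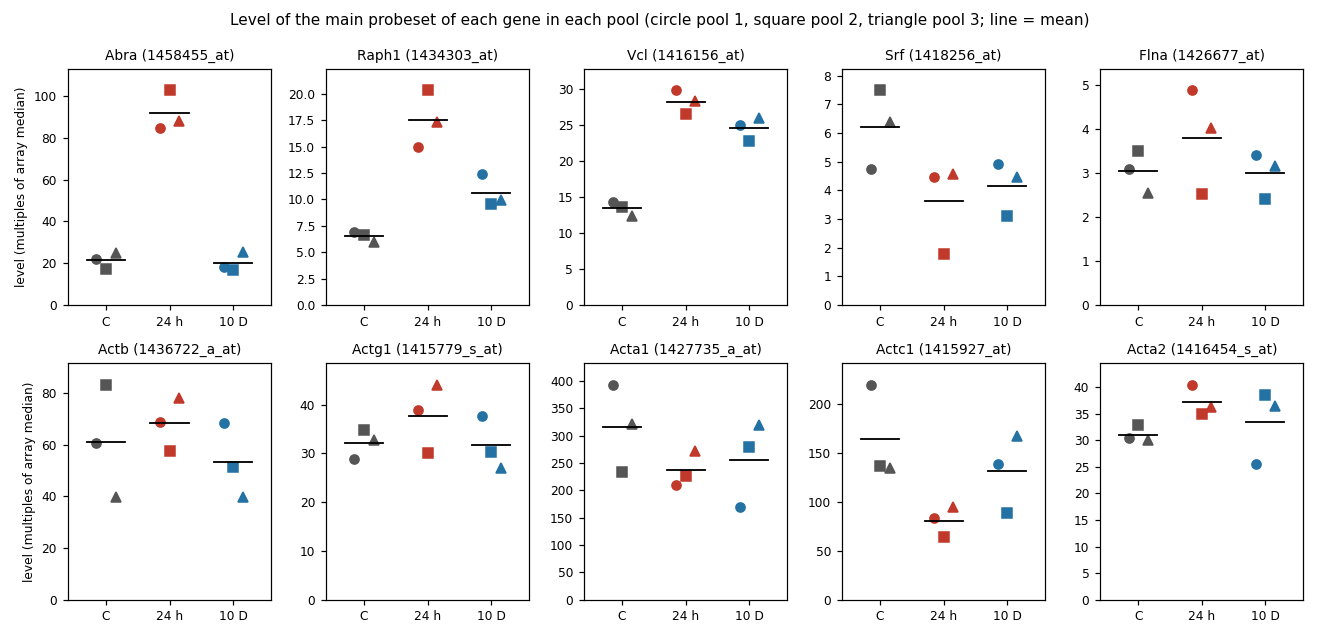
Level of the main probeset of each of the 10 genes in each pool, as multiples of the array median on linear axes that start at 0 (circle, square and triangle are pools 1, 2 and 3 of a group, which were not taken to pair across groups, and lines are means of 3 pools). The 24 h pools of Abra sit between 84.7 and 103 and all other Abra pools at or under 25.2, the Vcl pools of both treatment times lie above C, and the Actb, Actg1 and Acta1 groups overlap.

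The actins of non-muscle cells and of the general cytoskeleton, Actb and Actg1, did not separate the groups. The level on the brighter Actb probeset, 1436722_a_at, was 60.5, 83.1 and 39.8 in the C pools, 68.8, 57.7 and 78.0 in the 24 h pools and 68.4, 51.4 and 39.8 in the 10 D pools. The C pools alone differed by a wider margin than the group means did. Its log2 change was 0.21 at 24 h (95% interval -0.46 to 0.88) and -0.17 at 10 D. At 24 h it was -0.068 without C pool 3 and 0.46 without C pool 2. On the second Actb probeset, 1419734_at, it was 0.02 and -0.23.

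Actg1 on 1415779_s_at stood at 28.9, 34.8 and 32.8 in the C pools, 38.9, 30.2 and 44.0 in the 24 h pools and 37.6, 30.2 and 27.1 in the 10 D pools. Its log2 change was 0.22 at 24 h (95% interval -0.27 to 0.70) and -0.03 at 10 D, with overlap at both times. At 24 h it was 0.095 without 24 h pool 3 and 0.37 without 24 h pool 2. Actin transcripts are close in sequence. Some probesets, such as those whose names end in _s_at, can share probes with related transcripts, so their levels may hold signal of another actin.

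Among the striated muscle actins, Actc1 was lower in the 24 h pools and Acta1 was not clearly different. Actc1 encodes cardiac α-actin, which skeletal muscle also makes during development and regeneration. Its level on 1415927_at was 219, 137 and 135 in the C pools, 83.4, 63.9 and 95 in the 24 h pools and 139, 88.3 and 167 in the 10 D pools. Every 24 h pool lay below every C pool, and the 10 D pools overlapped both. The log2 change was -1.0 at 24 h (SE 0.30, 95% interval -1.66 to -0.33) and -0.33 at 10 D, and from 24 h to 10 D it was 0.67. This probeset was not called at 24 h, where its log2 change was -0.77 without C pool 1.

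Acta1 encodes the skeletal α-actin of the thin filament. Its level on 1427735_a_at was 393, 234 and 321 in the C pools, 210, 227 and 272 in the 24 h pools and 169, 280 and 320 in the 10 D pools. The groups overlapped at both times, and the widest spread was among the C and 10 D pools. This gave a log2 change of -0.40 at 24 h (95% interval -1.04 to 0.25) and -0.32 at 10 D. After quantile normalization it was -0.17 at 24 h, and without C pool 1 it was -0.22. The 10 skeletal fibre markers all had log2 changes below 0 at 24 h as well (median -0.28), with none called, and their part in the Acta1 and Actc1 values was not tested.

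Acta2, the α-actin of smooth muscle, was slightly higher in the 24 h pools, though the intervals also allow no change. On 1416454_s_at the level was 30.3, 32.9 and 30.02 in the C pools, 40.4, 34.9 and 36.2 in the 24 h pools and 25.5, 38.4 and 36.5 in the 10 D pools. All 24 h pools lay above C by a small margin, and the 10 D pools overlapped C. The log2 change was 0.26 at 24 h (95% interval -0.21 to 0.72) and 0.09 at 10 D. On 1444105_at, a dimmer probeset, the C pools (0.943, 0.864 and 0.995) also lay below the 24 h pools (1.16, 2.10 and 1.08). Its log2 change was 0.57 at 24 h (95% interval -0.45 to 1.58). The third probeset, 1456658_at, was too dim to be tested. The summed level of 7 smooth muscle and pericyte markers was 77.5 to 85.6 in C and 70.7 to 85.2 at 24 h, and the log2 change of Myh11, the smooth muscle myosin, was -0.77 at 24 h (adjusted p = 0.507, limma). In whole muscle, fewer cells of a type and less RNA per cell cannot be told apart.

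**Figure D2:**
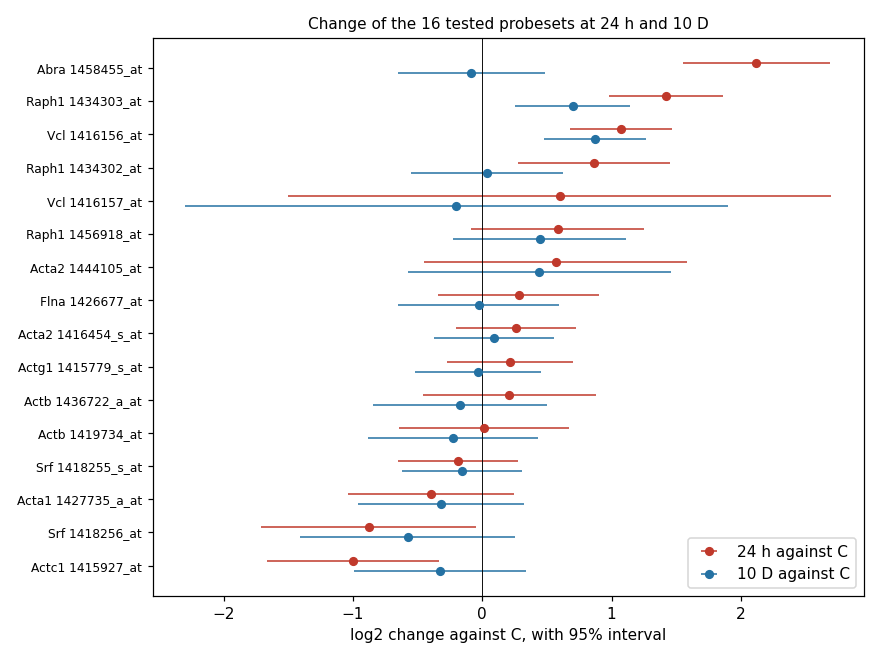
Log2 change against C at 24 h (red) and 10 D (blue) for the 16 tested probesets of the 10 genes, with the 95% interval from limma on a linear axis. The red points run from -1.0 (Actc1) to 2.12 (Abra), and the blue points of Vcl 1416156_at and Raph1 1434303_at have intervals above 0 before adjustment for the number of probesets.

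Over all members, 3 of the 16 tested probesets were called at 24 h (Abra, Vcl 1416156_at and Raph1 1434303_at, all higher), beside 0.329% of the 33752 probesets tested that were called higher. The 24 h pools lay wholly above the C pools for 6 probesets and wholly below for 2, beside 9.60% and 7.23% of all tested. The Abra call held in all 20 alternatives. Those of Vcl and Raph1 were both lost without the intensity trend or without C pool 1, 2 or 3 or 24 h pool 3, and that of Vcl also without 24 h pool 1 or 2 or 10 D pool 3. Nothing is read from these shares, because the 24 h results were known when the genes were chosen. The median log2 change of the 16 was 0.27, beside 0.02 for all tested.

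At 10 D no member was called by limma, and neither was any of the 33752 probesets (0%). An unadjusted p under 0.05 was found for 2 member probesets, Vcl 1416156_at and Raph1 1434303_at, beside 4.56% of all tested. A per-probeset linear model, with the variance of each probeset alone and each contrast adjusted on its own, called no member either. The paper instead tested all 3 treatments at once and then read contrasts at an unadjusted p under 0.05. It lists both of these probesets as higher at 10 D. The 10 D pools lay wholly above C for 3 of the 16 and wholly below for 0, beside 5.76% and 4.52%. The log2 changes were above 0 for 6 and below 0 for 10, with a median of -0.06 beside 0.01 for all tested. From 24 h to 10 D, 1 member was called (Abra, lower), beside 0.0356% of all tested, and the 10 D pools lay wholly below the 24 h pools for 4 of 16, beside 5.10%. The 24 h and 10 D differences share the C pools.

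The genes with a CArG box in the window went both ways at 24 h on their main probesets. The log2 change was 1.07 for Vcl and 0.22 for Actg1, and it was -0.88 for Srf, -0.40 for Acta1 and -1.0 for Actc1. The 3 genes whose window held no box of the exact pattern had 0.26 (Acta2), 0.28 (Flna) and 1.42 (Raph1). Looser boxes were not searched for.

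The undivided signals of 4 actin probesets varied less between arrays than the array medians did. The array medians ran from 30.8 to 88.4 on MOE430A and from 13.2 to 37.1 on MOE430B, a ratio of 2.87 and 2.81. Acta1 was the probeset of rank 8 in brightness on MOE430A, and its undivided signal ran only from 8102 to 15186 over the 9 arrays, a ratio of 1.87. Actb 1419734_at ran from 969 to 1890, and the ratio was 2.69 for Acta2 1416454_s_at and 2.15 for Acta2 1444105_at. Actc1, of rank 53, ran from 2283 to 12261, and Vcl 1416156_at from 440 to 2207. For Acta1, division by the median thus gave the highest level to the array of lowest median, C pool 1, and the lowest to the array of highest median, 10 D pool 1. The part of array brightness in the Acta1 result was not tested further.

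**Figure D3:**
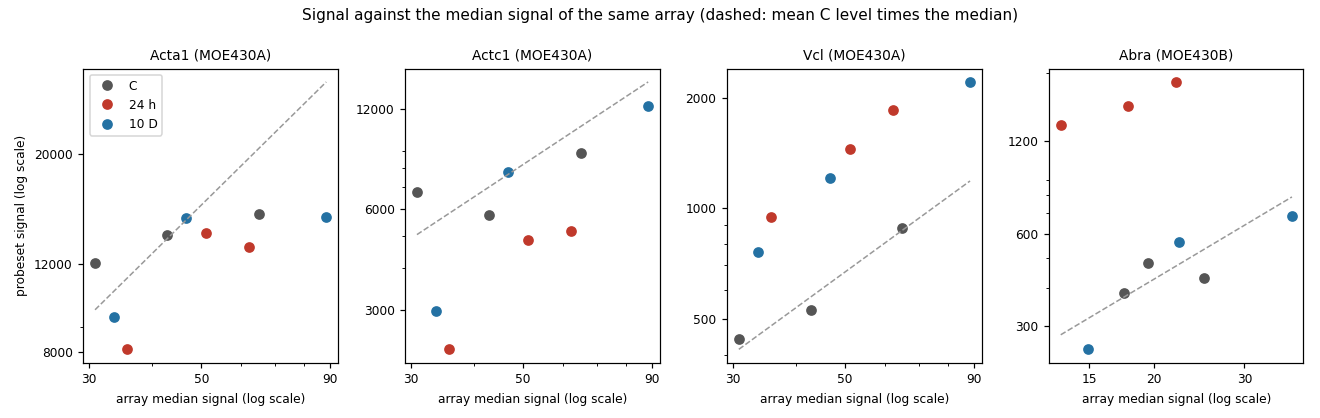
Undivided signal of Acta1, Actc1, Vcl and Abra against the median signal of the same array, both on log scales, for the 9 pools (grey C, red 24 h, blue 10 D); the dashed line is the mean C level times the median. Acta1 signals stay between 8102 and 15186 over a 2.87-fold range of medians, whereas Vcl signals of both clenbuterol groups and Abra signals of the 24 h group sit above the line.

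Around these members, 142 genes of actin and Srf biology were put in 7 lists, also with earlier results known, and 127 had a tested probeset. At 24 h 3 rose and 0 fell (2.36%, beside 0.672% of 15184 genes), and 20 had an unadjusted p under 0.05 (15.7%, beside 9.55%). At 10 D limma called none, with 6 at an unadjusted p under 0.05 (4.72%, beside 4.45% of all genes). The genes that rose were Hopx, Tpm4 and Flnc. Since the lists were made with earlier results known, the adjusted p-values of these genes are description only. Because so few of all genes were called, the count of calls in a single list says little about that list.

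Hopx encodes a homeodomain protein that binds Srf and restrains it. Its level on 1428662_a_at was 3.86, 3.79 and 4.21 in the C pools, 8.24, 8.61 and 9.88 in the 24 h pools and 4.44, 4.09 and 4.78 in the 10 D pools. The 24 h pools lay far above the rest, with a log2 change of 1.17 (SE 0.19, limma adjusted p = 0.0483), and a second Hopx probeset gave 1.58 (adjusted p = 0.106). The paper, which calls this gene Hod, also lists it as higher 24 h after a single injection by quantitative PCR in other mice. Tpm4, a tropomyosin of non-sarcomeric filaments, went from 5.30 ± 0.383 in C to 12.1 ± 1.59 at 24 h and 6.24 ± 1.01 at 10 D (SD, n = 3), a log2 change of 1.19 at 24 h (limma adjusted p = 0.0660). Flnc, the muscle filamin and a relative of Flna, went from 27.7 ± 3.04 to 82.6 ± 11.7 and then stood at 30.6 ± 11.98 at 10 D (SD, n = 3), a log2 change of 1.57 at 24 h (limma adjusted p = 0.0779), while its second probeset gave 0.76 (adjusted p = 0.670). All 3 calls were lost when any 1 of the C or 24 h pools was left out, and those of Hopx and Tpm4 also without 10 D pool 3, with adjusted p up to 0.258, 0.265 and 0.341. All 3 were lost without the intensity trend as well. That of Tpm4 was also lost with quantile normalization (adjusted p = 0.161, limma) or trimmed mean scaling (adjusted p = 0.106, limma). That of Flnc was also lost in the per-probeset linear model (adjusted p = 0.178) or with each array type adjusted alone (adjusted p = 0.132, limma).

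The coactivators that couple monomeric actin to Srf did not pass the test, and the sign of both turned when 24 h pool 2 was left out. Mrtfa had a log2 change of -0.03 at 24 h and Mrtfb of 0.16. Ablim3 had -0.61 and Diaph1, a formin that elongates filaments, 0.45, neither called. Of 25 Srf target genes 1 rose (Tpm4, 4% beside 0.672% of all genes), with a list median of 0.06. Cald1, the actin-binding caldesmon, had a log2 change of 1.07 (adjusted p = 0.106, limma), Pdlim5 had 0.71 and Egr3 had 0.87. Fos, an immediate early Srf target, had -0.62 (adjusted p = 0.735, limma), from -1.0 without C pool 1 to -0.33 without C pool 2.

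Of 20 listed genes of the Arp2/3 complex, which nucleates branched filaments, and its activators, 15 were tested. The rest were not analysed here, so the count does not cover the whole complex. Among the genes left out was Arpc3, a subunit of the complex, for which no probeset was found by name. The paper lists Arpc3 as higher at both treatment times, and at 24 h also by quantitative PCR in other mice. None of the 15 was called at 24 h, and 11 were above 0 (median 0.34), beside 53.6% of all genes (median 0.04), a difference that was not tested. Cortactin (Cttn), which stabilises branches, had 1.48 (adjusted p = 0.22, limma), the activator Wasl 0.84, Brk1 0.45 and Abi1 0.45. Of 26 genes of monomer binding, capping and severing none was called (median -0.11). Twf2 had 0.93 (adjusted p = 0.146, limma), the severing protein Cfl1 0.91, and the thin filament pointed end proteins Tmod1 and Lmod3 had -0.72 (-0.43 without 24 h pool 1) and -0.73.

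None of 19 focal adhesion and costamere genes, the surroundings of vinculin, was called (median 0.08). Bcar1 had 0.78, Sorbs2 -0.70, Tln2, a talin that binds vinculin, 0.40, and Itga5 1.52 with a wide error (SE 0.76), from 0.64 without C pool 1 to 2.11 without C pool 2. The partners of lamellipodin were not called either, at 0 of 6 genes (median 0.00). Enah had 0.27 (0.056 without 24 h pool 1), Evl 0.19, Vasp -0.61 (-0.34 without 24 h pool 2) and Cdc42 -0.91 (0.086 without 24 h pool 3). Of 19 crosslinkers, membrane linkers and non-sarcomeric myosins 1 rose (Flnc), and 6 had an unadjusted p under 0.05 (5.26% and 31.6%, beside 0.672% and 9.55% of all genes). Svil had -1.10 (adjusted p = 0.221, limma), Myo18a 0.79, Msn 0.66 and Actn4 0.45.

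**Figure D4:**
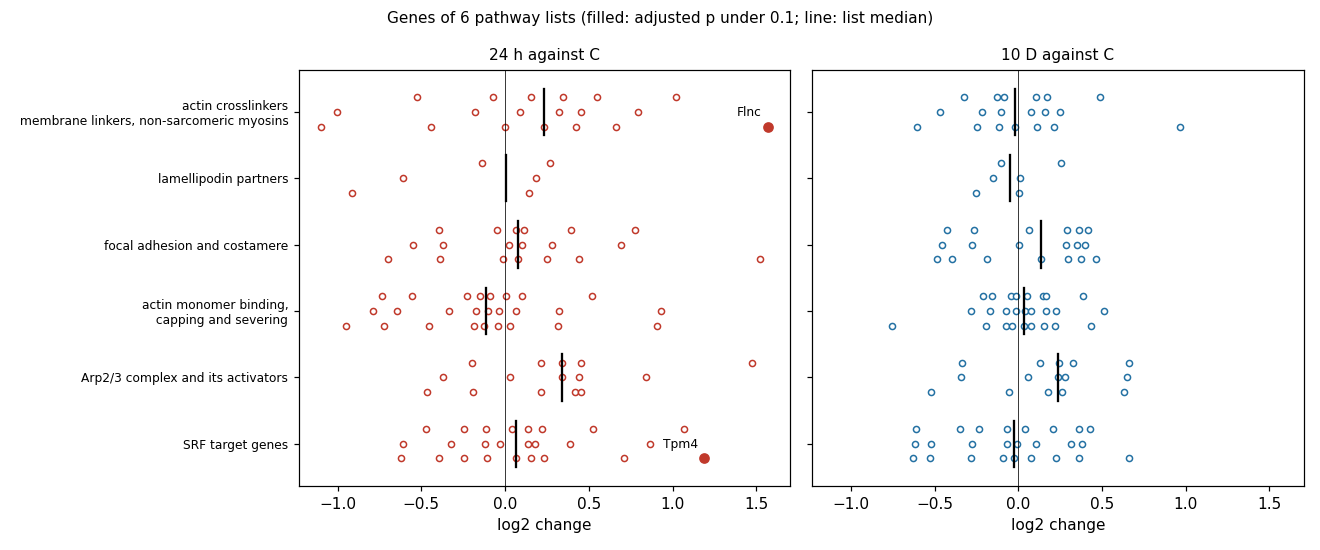
Log2 change of each tested gene of 6 of the lists at 24 h (left) and 10 D (right) against C, 1 probeset per gene, with list medians as black lines; filled points have an adjusted p under 0.1. The only filled points are Tpm4 and Flnc at 24 h, at 1.19 and 1.57.

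The probesets whose pattern over the 9 pools was most like that of Abra were sought among 11227 others on MOE430B with a single gene name. The highest Pearson correlations of log2 levels were 0.979 for Klhl40, a kelch protein of striated muscle, 0.971 for 2410006H16Rik, 0.970 for Tsr1, 0.964 for Slc7a1, an amino acid transporter, and 0.964 for Flnc. All genes compared share the 9 arrays and the division by their medians. Klhl40 had levels of 34.9, 32.8 and 33.9 in the C pools, 84.3, 79.3 and 84.2 in the 24 h pools and 35.3, 30.9 and 45.5 in the 10 D pools. Among the members on the same array type, Raph1 1434303_at had 0.81, Raph1 1434302_at 0.79, Raph1 1456918_at 0.43 and Acta2 1444105_at 0.33.

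A few markers of other cells were higher at 24 h, beside the higher Abra, Vcl and Raph1 levels. The summed level of 6 satellite cell and myoblast markers was 7.06 to 9.23 in C, 13.5 to 16.1 at 24 h and 6.62 to 7.76 at 10 D. Of the 6, 2 were above 0 and 4 below at 24 h (median log2 change -0.10), and the 1 that rose was Myog, the myogenic factor of differentiating myoblasts, with a log2 change of 2.06 (adjusted p = 0.0531, limma), and Pax7, the satellite cell factor, had -0.10. The summed level of 5 neutrophil markers was 3.96 to 4.69 in C, 6.07 to 8.55 at 24 h and 3.998 to 5.74 at 10 D, and 1 of the 5 rose, S100a8 (log2 change 4.34, adjusted p = 0.0439, limma). Its levels in C were at most 0.205, so the size depends on the floor, and with signals under 10 set to 10 it was 3.33. The Myog call was lost without any 1 C or 24 h pool or without 10 D pool 3 (adjusted p up to 0.245, limma). It was also lost without the intensity trend (adjusted p = 0.128, limma) and in the per-probeset linear model (adjusted p = 0.185). That of S100a8 was lost without C pool 1 or 3 or any 1 of the 24 h pools (adjusted p up to 0.165, limma). The per-probeset linear model did not call S100a8 either (adjusted p = 0.195). None of 8 macrophage, 7 fibroblast, 6 endothelial, 3 adipocyte or 4 cardiac markers tested was called. Over all 9 marker lists 2 of 56 tested genes were called at 24 h (3.57%, beside 0.672% of all genes). Counts in lists this short say little about a cell type. The summed ranges in C and at 24 h were 25.1 to 31.3 and 23.7 to 35.6 for macrophages, 147 to 268 and 117 to 210 for fibroblasts, 22.5 to 25.5 and 25.1 to 30.1 for endothelium, 96.7 to 141 and 95.1 to 146 for adipocytes and 2.83 to 3.86 and 3.17 to 3.89 for heart. The part of these cells in the member levels was not tested.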

How the data were processed

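RNA from gracilis muscle was hybridised to Affymetrix MOE430A and MOE430B arrays, 9 of each, and pools were grouped by the sample labels. The deposited intensity values were the MAS 5.0 signals that the authors computed, 1 per probeset, and array medians differed in them. Gene names came from the platform annotation (34945 probesets with 1 symbol, 932 with several and 9160 with none listed). Each signal was divided by its array median and log2 transformed, with 18 signals of 0 set to 0.05. Probesets with a mean log2 signal under the 25th percentile of their array type were not tested, and of 100 probesets on both types the MOE430B copy was left out. R 4.3.3 and limma 3.58.1 fitted all 3 groups with an intensity trend, and p-values were adjusted over both types together. The fit was tested on simulated data. The number of arrays, 3 pools per group, limits the precision, and no scan date or slide was given.

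The main probeset of a gene is the tested one of highest mean log2 level. All members were named, with up to 4 genes of lowest p at 24 h from each of 7 lists, further genes named in the study, and the 5 genes most like Abra. Fos, Mrtfa, Mrtfb and the marker genes were added after their values were seen. Members, gene lists and tests were chosen with earlier results of these data known. A 3′ to 5′ ratio of control probesets could not be computed from the files used here. Alternatives were other filters, scalings, floors, variance models, adjustments and samples, a replicate block, and each pool left out. The count of 1 of the 7 lists is not reported here.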

Additional observations from a re-analysis of the deposited data

Results flagged for a closer look

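The level of Abra differed between the 2 treatment times, both set against the same C pools. Its log2 change from 24 h to 10 D was -2.20 (SE 0.26), with all 3 of the 10 D pools below all 3 of the 24 h pools, and this passed the threshold in the fit over all probesets. It is given as a description, since Abra was chosen with the 24 h result known. The difference stayed between -2.37 and -2.09 in 20 alternatives and passed in 16 of them. It did not pass without 24 h pool 1, without 24 h pool 3, without the intensity trend or with only the 2 groups compared.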

How the results depend on the processing

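Pools of 3 mice, 3 per group, limit what could be called. The count of probesets called at 24 h (154) was 52 without the intensity trend, 345 with only the 2 groups compared and 100 by the per-probeset linear model. With 1 pool left out it was 24 (without C pool 1) to 432 (without 10 D pool 2). From 24 h to 10 D (17) it was 40 with quantile normalization, 35 with trimmed mean scaling, 5 without the trend, 1 with only the 2 groups, and 1 (without 24 h pool 3) to 76 (without 10 D pool 2) with 1 pool left out. At 10 D (0) it was 3 with signals under 10 set to 10, 3 with a replicate block, 2 with each array type adjusted alone, and 0 to 1 with 1 pool left out.

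Of the members, 1 of 3 was called at 24 h without the trend (Abra) and 1 (without C pool 1) to 4 (without 10 D pool 2) with 1 pool left out. The Abra call held in all 20 alternatives, that of Raph1 in 15 (lost without C pool 1, 2 or 3, without 24 h pool 3 and without the trend) and that of Vcl in 12 (lost without any 1 C or 24 h pool, without 10 D pool 3 and without the trend). From 24 h to 10 D, 0 members were called without the trend and 0 with only the 2 groups, and 0 to 1 with 1 pool left out. At 10 D it was 0 throughout. Pathway genes called at 24 h (3) numbered 0 without the trend, 6 with only the 2 groups and 0 (without C pool 1) to 6 (without 10 D pool 2) with 1 pool left out. All 600 member log2 changes under these settings moved by less than the spread between pools, and none changed sign while called. The log2 change of Cdc42 at 24 h (-0.91) ran from -1.46 without 24 h pool 1 to 0.086 without 24 h pool 3. With 1 pool left out, that of Mrtfa ran from -0.28 (without 24 h pool 3) to 0.34 (without 24 h pool 2), that of Mrtfb from -0.016 (without 24 h pool 2) to 0.33 (without 24 h pool 3) and that of Pax7 from -0.42 (without 24 h pool 2) to 0.14 (without 24 h pool 1), none called.

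Deviations of same-numbered pools correlated over 0.1 in 5 of 18 pairs (-0.07 to 0.56), all 5 of them 24 h with 10 D pools. Between 24 h and 10 D these were 0.39, 0.56 and 0.10 on MOE430A and 0.11, 0.16 and 0.0077 on MOE430B, not every one over 0.1, and the C pools shared nothing above 0.1 with either, so the numbers were not taken to pair the pools. With the replicate block 209 probesets were called at 24 h, 3 at 10 D and 17 from 24 h to 10 D, with 3, 0 and 1 members and 3 pathway genes at 24 h.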
